A study of Mus musculus with 6 samples.

Results

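Kinesins are motor proteins that hydrolyse ATP to move along microtubules or to take microtubules apart. Some members of the family work in dividing cells, where they build the spindle, move and align chromosomes and organise the cleavage site. Many of the others carry vesicles, organelles, RNA and ciliary cargo through cells whether or not these divide. The genes described here are all rows of the deposited gene table whose symbol is Kif, a number and an optional letter a, b or c, which gave 37 of 28802 genes. Of these, 12 were grouped as mitotic by name (Kif2c, Kif4, Kif11, Kif14, Kif15, Kif18a, Kif18b, Kif20a, Kif20b, Kif22, Kif23 and Kif24) and the other 25 formed the comparison class.

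The RNA is labelled as mouse cranial bone, from a skull defect model with a defect of 5 mm, and was sequenced after poly(A) selection with paired reads. The 3 control libraries are labelled 0 µM. The 3 scaffold libraries are labelled as the Met/α-CSH/nHA scaffold at 500 µM, that is, metformin, a diabetes drug, held in a composite of calcium sulfate hemihydrate (α-CSH) with nano-hydroxyapatite (nHA), minerals used to fill bone. The labels name no strain, age or sex, and they do not say whether the control carried the filler without the drug, whether cells were cultured, or whether replicates were separate animals. The p-values therefore measure the spread between these libraries, which may be technical.

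Totals were 63174927 to 70955139 estimated counts per library, and 22240 to 23043 genes were above 0. The osteoblast markers were all at 1 FPKM (fragments per kilobase of transcript, scaled to library depth) or more (8 of 8), and 5 of 8 passed the test in the higher direction. Over all tested genes 2.85% passed in this direction. Runx2 was at 31.8, 27.2 and 28.0 FPKM in controls and 25.4, 25.8 and 23.7 in scaffold, all lower. It was not called (log2 fold change -0.17, edgeR adjusted p = 0.179), nor were Col1a1 (0.03) and Col1a2 (0.05). None of the 5 neuron, 5 multiciliated-cell, 5 endothelial or 5 erythroid markers in the table reached 1 FPKM. Of the 7 leukocyte markers 1 did, Lyz2, and of the 9 kidney tubule markers 1 did, Kap. The summed kidney markers ranged from 14.0 to 15.5 FPKM in controls and from 3.52 to 6.96 in scaffold. Kap was the largest part of this sum, at 11.5 to 13.1 FPKM in controls and 1.79 to 5.30 in scaffold. Of the 9 markers 2 were called lower and 0 higher, and the log2 fold changes of Aqp2 and Cubn were above 0 without a call. The part of such transcripts in the results below was not tested.

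The mitotic kinesins were higher in the scaffold libraries and the other kinesins were not called in either direction. With edgeR's quasi-likelihood test (Benjamini-Hochberg adjusted p under 0.05 over all 17375 tested genes), 10 of 12 mitotic kinesins rose, none fell, and 2 did not pass. Over all tested genes 2.85% were called higher and 1.46% lower, 4.31% in either direction. That is 496 genes higher and 253 lower, or 429 and 380 under scaling by total counts with no TMM factor, where 10 mitotic kinesins were again called. Of the 25 other kinesins 20 could be tested, and 0 passed in either direction; at an unadjusted p under 0.05 there were 2 of 20, Kif1c above and Kif27 below, where 18.1% of all tested genes had such a p, and DESeq2 also called 0. The median log2 fold change, scaffold over control, was 0.51 over the mitotic members (1.42-fold) and 0.01 over the other tested members, against -0.0045 over all tested genes.

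The start regions of the genes are shown first, since the mitotic members moved together and many genes of this phase of the cell cycle are known to carry a short element at their start. In textbook accounts this cell cycle genes homology region, or CHR, with the letters TTTGAA, is bound by the MuvB complex, often with CCAAT boxes upstream that are bound by NF-Y. RefSeq windows of 250 bases before to 50 after a start site (GRCm38.p6) were matched to 10 mitotic and 19 other members. TTTGAA on either strand was found in 8 of the 10 mitotic windows and 2 of the 19 other windows, against 12.1% of 10919 windows of tested genes. A match within 30 bases of the start site was found in 6 of 10 mitotic windows, 1 of 19 other windows and 1.75% of the windows of tested genes. The letters CCAAT on either strand were found in 6 of 10, 6 of 19 and 38.7%, and TTTNNCGC, a loose form of the E2F site, in 2 of 10, 1 of 19 and 8.17%. The CHR and CCAAT letters share no overlap in the stretches printed here. A match is a run of letters and not a shown binding site.

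The stretches from 80 bases before to 30 bases from the start site are given for the 6 mitotic members with a match near the start, and for Kif26b and Kif1c as the contrast: Kif26b, chosen for its letters, is the one other member with such a match, and Kif1c is the most abundant kinesin, with none. All run 5′ to 3′ on the gene's strand, and capitals mark TTTGAA and CCAAT or their reverse complements, TTCAAA and ATTGG.
Kif20b, chr19:34922278-34922387, plus strand: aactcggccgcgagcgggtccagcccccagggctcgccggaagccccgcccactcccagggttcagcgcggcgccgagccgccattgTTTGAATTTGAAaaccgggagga
Kif23, chr9:61946770-61946879, minus strand: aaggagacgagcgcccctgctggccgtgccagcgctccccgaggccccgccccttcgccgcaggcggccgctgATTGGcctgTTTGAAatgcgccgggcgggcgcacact
Kif11, chr19:37376302-37376411, plus strand: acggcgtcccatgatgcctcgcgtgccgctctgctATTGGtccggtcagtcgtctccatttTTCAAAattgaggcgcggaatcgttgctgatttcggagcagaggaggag
Kif22, chr7:127042391-127042500, minus strand: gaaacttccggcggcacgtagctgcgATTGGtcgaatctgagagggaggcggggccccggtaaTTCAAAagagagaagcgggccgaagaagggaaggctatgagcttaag
Kif18b, chr11:102925095-102925204, minus strand: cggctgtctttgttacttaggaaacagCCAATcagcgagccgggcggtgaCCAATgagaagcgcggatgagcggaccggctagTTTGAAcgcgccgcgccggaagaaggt
Kif15, chr9:122951001-122951110, plus strand: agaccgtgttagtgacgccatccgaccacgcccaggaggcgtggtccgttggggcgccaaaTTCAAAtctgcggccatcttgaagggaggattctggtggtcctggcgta
Kif26b, chr1:178529045-178529154, plus strand: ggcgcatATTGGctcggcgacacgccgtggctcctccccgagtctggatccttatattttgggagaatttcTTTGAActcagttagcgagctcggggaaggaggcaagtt
Kif1c, chr11:70700468-70700577, plus strand: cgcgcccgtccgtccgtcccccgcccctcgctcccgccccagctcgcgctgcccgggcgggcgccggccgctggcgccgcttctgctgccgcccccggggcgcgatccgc

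Kif20b carries TTTGAA as a direct tandem pair just after the start site. In Kif11, Kif22 and Kif15 the element stands on the opposite strand, with centres at -16.5, -14.5 and -16.5 bases from the start site. Kif18b and Kif23 carry it on the gene's strand, centred at 5.5 and 4.5. Kif18a and Kif24, the mitotic members that did not pass the test, had no TTTGAA in their windows, and Kif24 had 4 CCAAT letters. They were also the least abundant mitotic members (mean 0.874 and 0.577 FPKM), and a link between the letters and the calls was not tested. Kif14 and Kif2c had 1 TTTGAA each, centred at -225.5 and -100.5, but their RefSeq start lies over 1000 bases from the gene start in the deposited table, as do those of Kif17 and Kif27. Windows were not used for Kif4 and Kif20a, nor for Kif13b, Kif19a, Kif21b, Kif28, Kif5a and Kif5b.

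**Figure D1:**
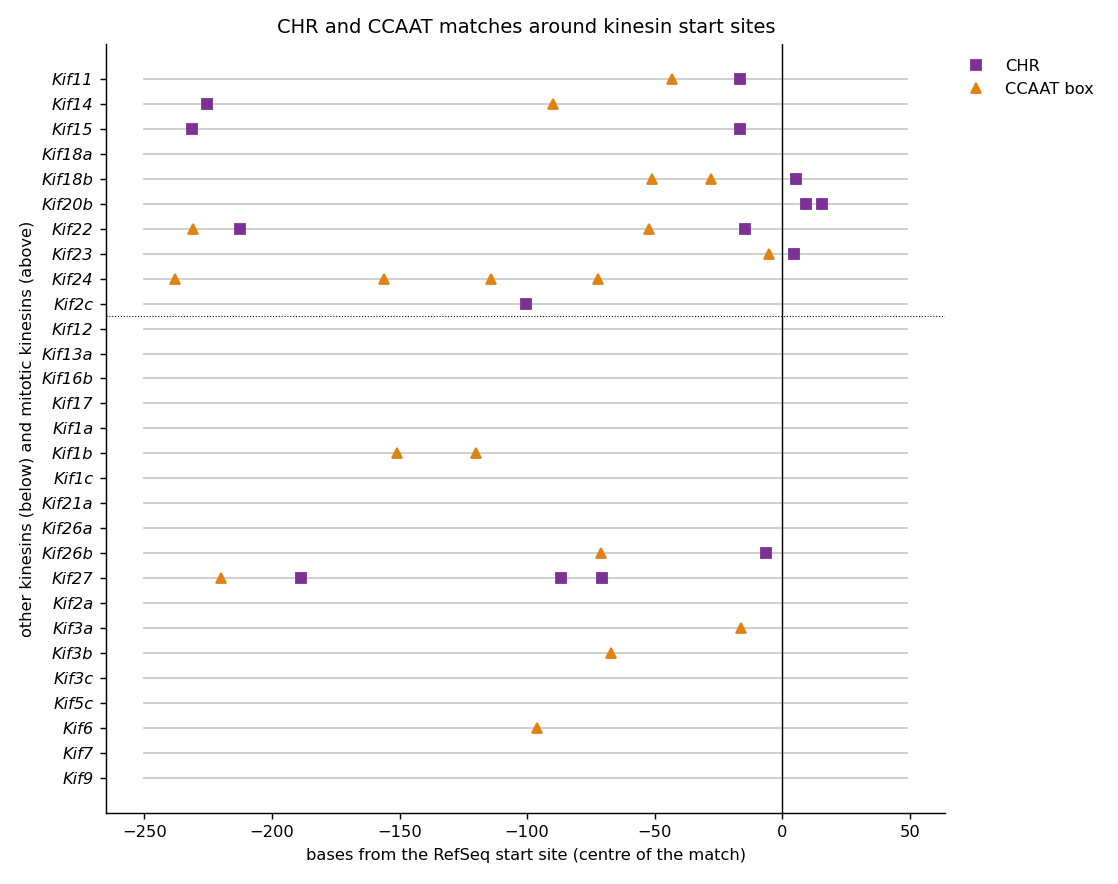
Positions of CHR (TTTGAA, squares) and CCAAT (triangles) letters on either strand in RefSeq windows around the start sites of 10 mitotic and 19 other kinesins; the horizontal axis is the distance in bases from the start site to the centre of a match. Squares lie within 30 bases of the start in 6 mitotic genes and in 1 other gene, Kif26b.

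In function terms written in the deposited table, 9 of the 12 mitotic members carried a term with the word spindle and 8 a term for the cell cycle, division, mitosis or cytokinesis, against 2 and 4 of the 25 others. The 2 others with a spindle term were Kif2a and Kif3b. Terms for axon, dendrite, neuron or synapse were carried by 11 of the others and 0 mitotic members. Ciliary terms were carried by 7 others and 1 mitotic member, Kif24. The genes are not clustered: the 12 mitotic members lie on 9 chromosomes.

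Motors of the early spindle come first. Kif11 makes the tetrameric motor that slides the spindle poles apart (ENSMUSG00000012443, chromosome 19, 37376403 to 37421859, GRCm38). It was the most abundant mitotic kinesin, with 8.22, 8.53 and 8.46 FPKM in the controls, while the scaffold libraries had 10.6, 11.4 and 11.3. Every scaffold library lay above every control library, and the log2 fold change was 0.44 ± 0.05 (SE; adjusted p = 0.00137). Its call was kept in all 16 alternatives tried. Kif15 encodes a second motor of bipolar spindles that can act beside Kif11 (ENSMUSG00000036768, chromosome 9, 122951046 to 123018733). It stood at 0.835, 0.988 and 0.883 FPKM in controls and 1.17, 1.45 and 1.40 in scaffold, with no overlap (log2 fold change 0.61 ± 0.11, adjusted p = 0.00775). Without scaffold replicate 3 it no longer passed (adjusted p = 0.0501), at a log2 fold change of 0.57, nor with limma on log2(FPKM + 1) (0.0758), on log2(FPKM + 0.1) (0.0762) or with no filter (0.201).

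Kif2c and the Kif18 genes act on microtubule ends and on attachment at the kinetochore. Kif2c encodes MCAK, which takes microtubules apart to correct faulty attachments (ENSMUSG00000028678, chromosome 4, 117159639 to 117182639). Its levels were 2.49, 3.01 and 2.92 FPKM in controls and 3.48, 3.68 and 3.97 in scaffold. The groups did not overlap, with a log2 fold change of 0.44 ± 0.10 (adjusted p = 0.0264). The call was lost without control replicate 1 (adjusted p = 0.0748), 2 (0.0516) or 3 (0.0606) and without scaffold replicate 2 (0.0889) or 3 (0.143), at log2 fold changes of 0.36 to 0.50. It was also lost with no filter on low counts (0.0900) and with limma (0.0622 and 0.0631 at a pseudocount of 1 and 0.1, and 0.181 with no filter). Kif18b, which acts with Kif2c on astral microtubules (ENSMUSG00000051378, chromosome 11, 102905529 to 102925124), stood at 3.13, 2.93 and 2.91 FPKM in controls and 4.22, 4.58 and 4.06 in scaffold. It rose by 0.56 ± 0.08 on the log2 scale (adjusted p = 0.00332), again with groups apart.

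Its paralogue Kif18a, which damps chromosome movements at metaphase, was less abundant per length and did not pass. Kif18a stood at 0.817, 0.660 and 0.821 FPKM in controls and 1.01, 0.916 and 1.02 in scaffold. Here too every scaffold library was above every control library, with a log2 fold change of 0.40 ± 0.11 (95% interval 0.15 to 0.64, adjusted p = 0.0805). DESeq2 called it (adjusted p = 0.0236). Between 513 and 804 estimated counts lay behind each of these values.

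The motors that act on chromosome arms were both higher. Kif4 encodes a chromokinesin that helps condense chromosomes and later limits microtubule growth at the midzone (ENSMUSG00000034311, chromosome X, 100625737 to 100727214). Its control libraries were nearly equal at 3.48, 3.50 and 3.47 FPKM, and the scaffold libraries were at 4.40, 4.66 and 5.03. The difference, 0.47 ± 0.07 on the log2 scale (adjusted p = 0.00433), was larger than the spread in either group. Kif22, the chromokinesin Kid that pushes arms away from the poles (ENSMUSG00000030677, chromosome 7, 127027729 to 127042471), was at 2.67, 2.67 and 2.60 FPKM in controls and 3.46, 3.79 and 4.04 in scaffold. It rose by 0.54 ± 0.08 (adjusted p = 0.00363).

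Of the 12, the largest fold changes were those of 3 motors of the central spindle and of cell cleavage, Kif20a, Kif20b and Kif23. Kif20b, a motor of late cytokinesis (ENSMUSG00000024795, chromosome 19, 34922361 to 34975745), had 5.12, 5.53 and 5.31 FPKM in controls and 7.47, 7.92 and 8.73 in scaffold. It rose 1.55-fold, by 0.63 ± 0.07 on the log2 scale (adjusted p = 0.00109). Kif20a, which brings the chromosomal passenger complex to the midzone (ENSMUSG00000003779, chromosome 18), stood at 6.66, 7.70 and 7.46 FPKM in controls and 9.37, 11.02 and 12.6 in scaffold. Its scaffold libraries were spread most widely of the mitotic members (10.98 ± 1.59 FPKM, SD, n = 3), all above control, and it rose by 0.63 ± 0.10 (adjusted p = 0.00501).

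Kif23 is the motor subunit of centralspindlin, the complex that bundles midzone microtubules (ENSMUSG00000032254, chromosome 9, 61915905 to 61946774). It was at 1.98, 2.18 and 2.39 FPKM in controls and 3.16, 3.16 and 3.48 in scaffold, with a log2 fold change of 0.62 ± 0.09 (adjusted p = 0.00276). Kif14, which recruits citron kinase to the midbody (ENSMUSG00000041498, chromosome 1, 136466343 to 136531511), was lower in abundance, at 1.16, 1.03 and 0.963 FPKM in controls and 1.46, 1.27 and 1.41 in scaffold. The groups did not overlap and it passed narrowly, with a log2 fold change of 0.44 ± 0.10 (adjusted p = 0.0267). It did not pass without control replicate 2 (adjusted p = 0.103) or 3 (0.103), or without scaffold replicate 1 (0.0656) or 3 (0.119), at log2 fold changes of 0.38 to 0.42. Nor did it pass with no filter on low counts (0.0745) or with limma (0.137 and 0.138 at a pseudocount of 1 and 0.1, and 0.296 with no filter).

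Kif24 differs from the rest of the class by its known role, since it restrains cilium assembly at the mother centriole. It was also the least abundant mitotic member, at 0.507, 0.577 and 0.470 FPKM in controls and 0.581, 0.692 and 0.633 in scaffold. The groups were apart by a small gap, and the log2 fold change of 0.33 ± 0.14 did not pass (95% interval 0.03 to 0.63, adjusted p = 0.231). It was not called under any of the 15 alternatives that kept it.

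**Figure D2:**
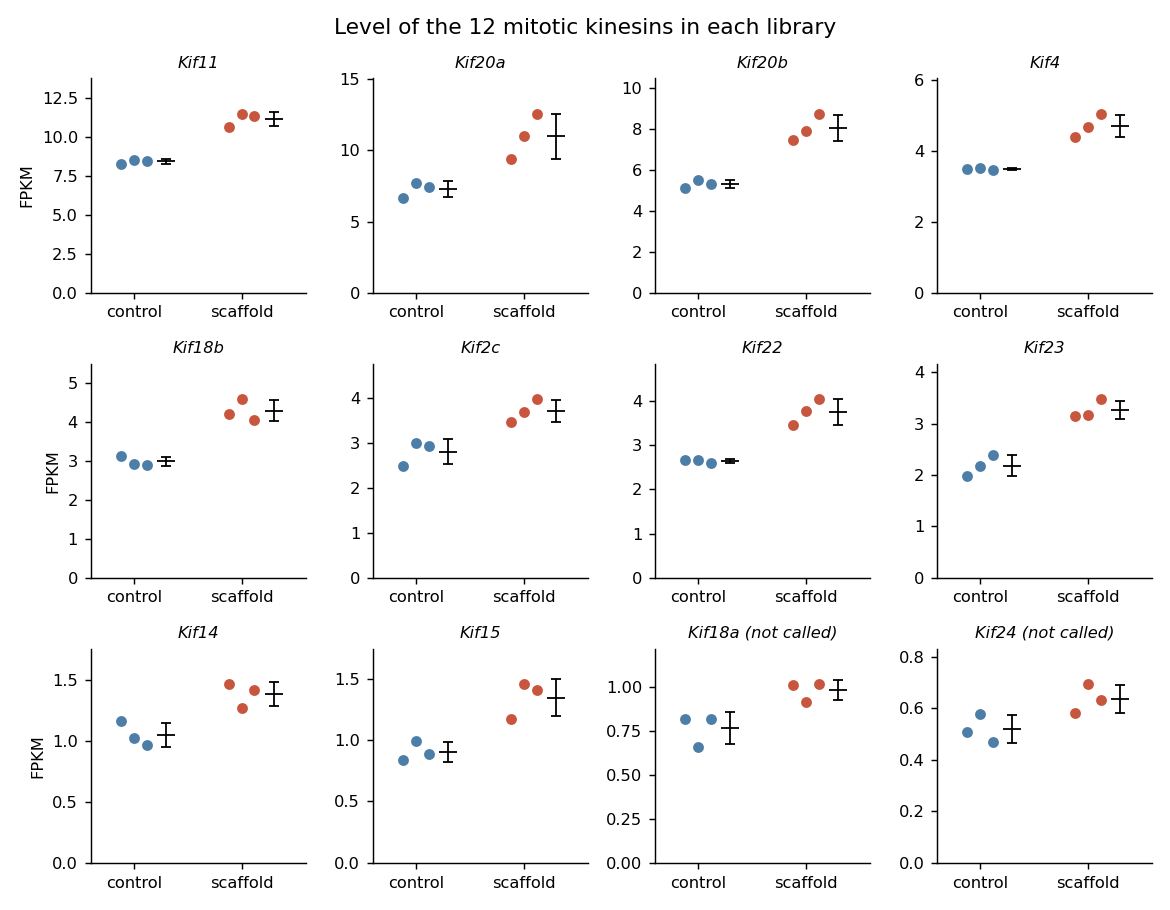
FPKM of the 12 mitotic kinesins in the 3 control (blue) and 3 scaffold (red) libraries, each panel with its own axis from 0; black bars are the mean and SD. In all 12 panels the scaffold libraries lie above the control libraries, and Kif18a and Kif24 are the ones not called.

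In all 12 mitotic members the FPKM of the 2 groups did not overlap, higher in scaffold, where 9.23% of all tested genes showed this. Scaffold replicate 3 held the highest value for 7 of the 12, scaffold replicate 2 for 4 and scaffold replicate 1 for 1. Control replicate 1 held the lowest value for 6, control replicate 3 for 5 and control replicate 2 for 1. Summed over the 12 genes, the level was 37.1, 39.3 and 38.7 FPKM in controls and 50.4, 54.6 and 57.6 in scaffold. The other 25 kinesins summed to 102, 96.2 and 94.7 FPKM in controls and 96.1, 99.2 and 96.6 in scaffold, so that these groups overlap. Of the summed FPKM of all 37 genes, the mitotic genes made up 28.2% ± 1.32 in controls and 35.8% ± 1.497 in scaffold (SD, 3 libraries per group). Kinesins with other symbols, such as Kifc1 and Cenpe, are not in this sum.

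Among the transport motors, the most abundant kinesins of these libraries were found. Kif1c, a carrier of vesicles and integrins, led with 24.3, 23.4 and 23.0 FPKM in controls and 24.1, 26.2 and 26.2 in scaffold. Its groups overlapped on this scale, and the log2 fold change was 0.15 ± 0.06 (adjusted p = 0.159; 95% interval 0.03 to 0.28). Kif5b, the widely expressed heavy chain of conventional kinesin, was second, at 16.4 ± 0.435 FPKM in controls and 16.6 ± 1.11 in scaffold (0.05 ± 0.06, adjusted p = 0.693). Its paralogues, best known from neurons, were much lower: Kif5c stood at 1.62 ± 0.0717 and 1.42 ± 0.0727 FPKM and Kif5a at 0.480 ± 0.0672 and 0.387 ± 0.104. The scaffold libraries were all below control for Kif5c, which did not pass (-0.16 ± 0.09, adjusted p = 0.378).

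Heterotrimeric kinesin-2, the motor of ciliary transport, was well represented. Its Kif3a subunit stood at 8.57 ± 0.566 FPKM in controls and 8.87 ± 0.482 in scaffold, and its partner subunit Kif3b at 9.50 ± 0.158 and 9.08 ± 0.263. Neither was called (adjusted p = 0.579 and 0.850), and the 95% interval of the log2 fold change ended at 0.24 for Kif3a and 0.09 for Kif3b. Kif3c, which can replace Kif3b as the partner of Kif3a, stood at 7.57 ± 0.394 and 6.79 ± 0.382 (-0.12 ± 0.06, adjusted p = 0.357). Kif17, a ciliary and dendritic motor, was near the floor at 0.0711 ± 0.0275 and 0.0856 ± 0.0226 FPKM.

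The vesicle and endosome motors and the signalling kinesins were also not called. Kif16b, which moves early endosomes, was at 6.57, 6.60 and 6.06 FPKM in controls and 5.76, 5.79 and 5.80 in scaffold; every scaffold library was lower, with a log2 fold change of -0.11 ± 0.05 (adjusted p = 0.329). Kif1b, a carrier of mitochondria and synaptic vesicle precursors, had a log2 fold change of 0.00 ± 0.07, Kif13a one of -0.06 ± 0.07 and Kif13b one of -0.14 ± 0.08. Kif7, the ciliary scaffold of Hedgehog signalling, stood at 3.08 ± 0.450 FPKM in controls and 3.27 ± 0.268 in scaffold (0.13 ± 0.11, adjusted p = 0.595). None of the 5 tested Hedgehog genes was called by edgeR or DESeq2, and 0 had an unadjusted p under 0.05, a list too short to set against the 18.1% of all tested genes: Gli1, a target of the pathway, was at 1.67 ± 0.101 and 1.74 ± 0.116 FPKM.

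Kif2a belongs to the other class although it also works at spindle poles, as well as in postmitotic neurons. Its levels, 4.57, 4.46 and 4.81 FPKM in controls and 4.81, 4.63 and 4.52 in scaffold, overlapped (log2 fold change 0.05 ± 0.06, adjusted p = 0.733, 95% interval -0.09 to 0.19). Its family member Kif2c, above, had an interval of 0.23 to 0.65, which does not meet that of Kif2a. Kif21a, a motor that stalls microtubule growth, had a log2 fold change of 0.24 ± 0.12 (adjusted p = 0.347), and Kif26b, a kinesin without known motility, one of 0.02 ± 0.09. Kif26b carries the CHR letters near its start that are printed above, and its levels of 2.08, 1.64 and 1.74 FPKM in controls and 1.73, 1.87 and 1.80 in scaffold overlapped.

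Of the 14 other kinesins with a mean of at least 1 FPKM, 13 had a 95% interval that ended below 0.51, the median log2 fold change of the mitotic members. Kif21a was the exception, at 0.52. The 6 tested members under 1 FPKM had wider errors (SE 0.20 to 0.50), and smaller differences were not detectable at this depth. Of these, Kif6 had 0.249 and 0.276 FPKM in the 2 groups, Kif9 0.416 and 0.302, and Kif28 0.110 and 0.123, without a call. Kif27, a relative of Kif7, had the lowest fold change of the family, with 0.421, 0.413 and 0.276 FPKM in controls and 0.242, 0.269 and 0.194 in scaffold. All scaffold libraries were lower, at -0.61 ± 0.24, and it did not pass (adjusted p = 0.202). In FPKM, 6 of the 20 tested other kinesins had non-overlapping groups with scaffold lower, and 16.2% of all tested genes did. On counts scaled by TMM, the scale of the test, 3 of the 20 were lower in this way and 1, Kif1c, higher, beside 11.4% and 12.5% of all tested genes.

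Too low to be tested were 5 members, with estimated counts at or under 27 in each library. Kif1a, an axonal motor of neurons, had 8, 11 and 4 counts in controls and 0 in all scaffold libraries. Kif21b had 0 in controls and 12, 0 and 9 in scaffold. Kif12 had 27, 9 and 0 in controls and 7, 0 and 8 in scaffold, while Kif19a and Kif26a were above 0 in 2 and 3 of the 6 libraries. The 5 neuron markers in the table had a median of 0.0134 FPKM and summed to between 0.216 and 0.386 FPKM in every library.

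**Figure D3:**
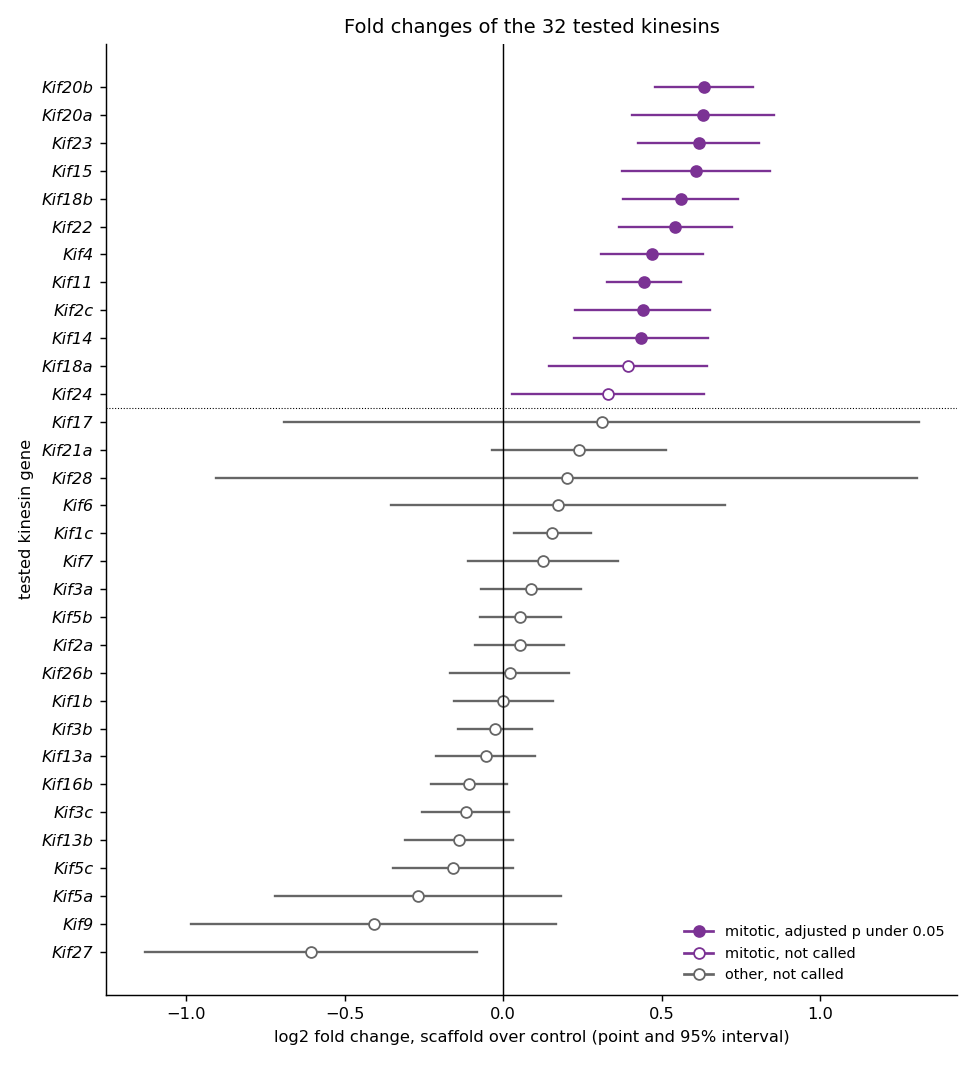
Log2 fold changes, scaffold over control, of the 32 tested kinesins with 95% intervals from edgeR; filled points passed at an adjusted p under 0.05. The 12 mitotic genes (above the dotted line) lie between 0.33 and 0.63, and the 20 others between -0.61 and 0.31.

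**Figure D4:**
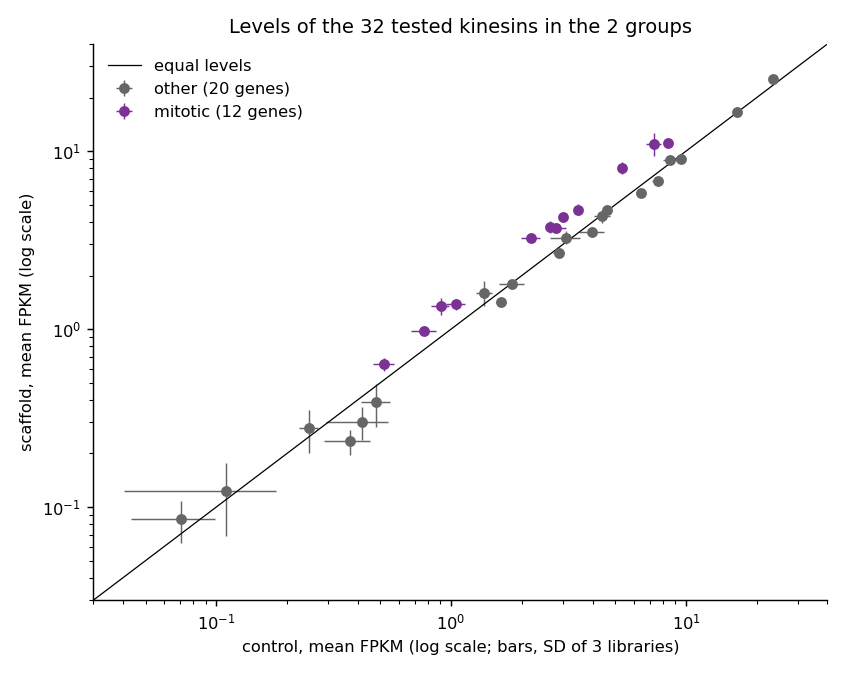
Mean FPKM in scaffold against control for the 32 tested kinesins on log axes, with SD over 3 libraries; the line marks equal levels. The mitotic genes lie above the line across levels from 0.577 to 9.77 FPKM, while the most abundant other genes lie on or near it.

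Within a family, the FPKM ratio of 2 genes in the same library does not depend on how libraries are scaled. Ratios of a mitotic to another tested member of its family (kinesin-3, kinesin-4 and kinesin-13, others at 1 FPKM or more) gave 9 pairs. In 7 of them every scaffold library was above every control library, with differences in the log2 ratio of 0.23 to 0.57 over all 9. The pairs are not separate observations: 5 of the 9, and 5 of the 7 apart, have Kif14 as the mitotic gene, and the share over other gene pairs was not computed. Kif2c over Kif2a was 0.545, 0.675 and 0.607 in controls and 0.722, 0.795 and 0.879 in scaffold. Kif4 over Kif7 was 0.973, 1.19 and 1.28 in controls and 1.48, 1.35 and 1.49 in scaffold. Both pairs gave p = 0.10 in an exact two-sided permutation test (0.129 adjusted over the 9 pairs), and 0.10 is the smallest p that 3 against 3 libraries allow. Kif24 over Kif2a and Kif4 over Kif21a had overlapping groups (exact permutation p = 0.20 each).

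Kinesins that the naming rule leaves out followed their roles in part. Cenpe, the kinetochore motor, rose by 0.54 ± 0.09 on the log2 scale (adjusted p = 0.00550), and Kifc1, the minus-end motor of spindle poles, by 0.37 ± 0.06 (adjusted p = 0.00756). Kifc2, Kifc3 and Stard9 did not pass. For the counts that follow, 2.85% of all tested genes were called higher. Among genes that work beside the mitotic kinesins, 9 of 9 central spindle and cytokinesis genes rose (median 0.49) and 10 of 11 spindle assembly genes (median 0.54; Cenpe and Kifc1 are on this list too). They include Prc1, the bundler that Kif4 binds (0.52 ± 0.06, adjusted p = 0.00142), Anln, the cleavage furrow scaffold anillin (0.59 ± 0.07, adjusted p = 0.00142), Birc5, of the passenger complex (0.54 ± 0.07, adjusted p = 0.00235), and Tpx2, a spindle assembly factor (0.60 ± 0.06, adjusted p = 0.000633). Of the 8 regulators of G2/M transcription, Foxm1 (0.46 ± 0.09, adjusted p = 0.0124) and Mybl2 (0.47 ± 0.11, adjusted p = 0.0361) rose and the other 6 did not pass. DESeq2 called 3 of the 8 higher, Lin9 being the third, and 890 genes higher in all. With edgeR, 5 of the 8 had an unadjusted p under 0.05, all of them higher, against 18.1% of all tested genes in either direction.

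Partners of the transport motors gave few calls. None of 15 tested partners of kinesin-1 and kinesin-2 was called (median 0.01), nor any of 26 intraflagellar transport genes (median -0.01). With edgeR at an unadjusted p under 0.05 there were 2 in each of these lists, against 18.1% of all tested genes, and DESeq2 called 0 in both. The light chain gene Klc1 was at 12.9 ± 0.593 and 12.7 ± 0.267 FPKM, and the kinesin-2 subunit Kifap3 at 15.0 ± 0.924 and 13.8 ± 0.336. Of 27 genes of dynein and dynactin, the motor that runs the opposite way, 1 rose, the light chain gene Dynlt1f (0.44 ± 0.10, adjusted p = 0.0389), one of several near-identical copies whose reads may be shared. DESeq2 called 2 there, Dynlt1f higher and Dynll2 lower. Of 15 tested tubulins, the parts of the track itself, 5 rose (9 with DESeq2). Over all tested genes edgeR called 2.85% higher, and DESeq2 called 890 genes higher and 540 lower. Among the tubulins the smallest edgeR p were those of Tubb3 (0.83 ± 0.14, adjusted p = 0.00716), Tubg1 (0.39 ± 0.07, adjusted p = 0.00756) and Tubb6 (0.36 ± 0.06, adjusted p = 0.00941).

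**Figure D5:**
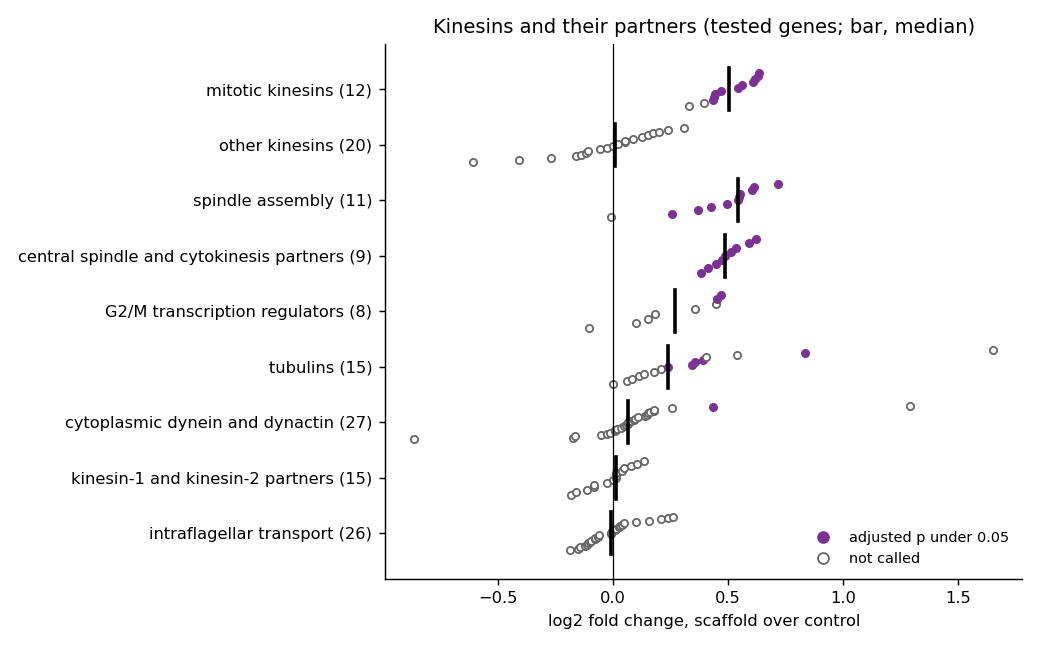
Log2 fold changes, scaffold over control, of tested kinesins and of genes that work with them, 1 point per gene with the number of tested genes in brackets and a bar at the median; filled points passed at an edgeR adjusted p under 0.05. Filled points are found among the mitotic kinesins, spindle and central spindle genes, with 2 among the regulators, 5 among tubulins, 1 in dynein and dynactin and 0 in the other 3 groups.

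Markers of dividing cells moved with the mitotic kinesins: 7 of 7 rose, and their summed level ranged from 96.0 to 109 FPKM in controls and from 134 to 142 in scaffold. Of all tested genes 2.85% were called higher. Mki67, the common proliferation marker, rose by 0.58 ± 0.07 on the log2 scale (adjusted p = 0.00133). The geometric mean of the 12 mitotic kinesins divided by that of the 7 markers was 0.216, 0.202 and 0.195 in controls and 0.200, 0.210 and 0.210 in scaffold, so the ratio overlapped between the groups. In bulk RNA, more dividing cells and more of these transcripts per dividing cell cannot be told apart.

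Some genes share their place with others, and no source used here says whether counting used strand. Kif20a overlaps Cdc23 on the opposite strand by 2327 bases, and Cdc23 had a mean of 6.55 FPKM. Kif18b lies within the opposite-strand lincRNA Gm26668, which was not analysed here, and Kif22 overlaps Gm31749 by 3824 bases. Kif11 contains 2 processed pseudogenes, each under 1 FPKM. Among the other kinesins, Kif28 overlaps Ahctf1 (mean 6.99 FPKM) by 378 bases and Kif17 overlaps Sh2d5 (0.30) by 10898, both on the same strand. Kif2a overlaps Dimt1 (2.49 FPKM) on the opposite strand by 1229 bases.

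The calls of the mitotic members depended in part on the tool, and those of Kif2c, Kif14 and Kif15 on single libraries. Kif4, Kif11, Kif18b, Kif20a, Kif20b, Kif22 and Kif23 kept theirs in all 6 fits with 1 library left out. With limma on log2(FPKM + 1) 7 of 12 passed at a mean of at least 0.5 FPKM, and 1, Kif11, with no filter on low values, where 38 genes in all passed in the higher direction.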

How the data were processed

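Poly(A) RNA of 6 libraries, 3 per group, was measured. The authors deposited 1 gene table with FPKM and estimated counts per library, both in the unit named by the file headers. Tools listed in the submitters' processing notes, with no step attached, are HISAT2 and StringTie, edgeR and DESeq2, fastp, and bcl2fastq 2.20. A genome build was not given in those sources. Of the gene identifiers 99.7% were in GENCODE mouse release M21 (GRCm38), and 90.6% of these had the same start and end. All 12 mitotic members were among these, and coordinates are printed for those described with a call, save chromosome 18. In the deposited counts 1202 to 1290 genes per library stood at exactly 4, against 582 to 680 at 3 and 323 to 402 at 5. One read pair may therefore be worth about 4 counts, which no source used here states; dividing by 4 was one of the alternatives.

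Estimated counts, rounded, were tested with edgeR 4.0.16 in R 4.3.3 (filterByExpr with a minimum count of 10, TMM scaling, quasi-likelihood test, two-sided, Benjamini-Hochberg over all tested genes, threshold 0.05). The standard error is the log2 fold change divided by the square root of F, and intervals use its degrees of freedom. Levels are FPKM, given as mean ± SD over 3 libraries. Alternatives used DESeq2 1.42.0, limma 3.58.1, other scalings and filters, and libraries left out. The scripts were tested on simulated data. The members and gene lists were chosen with earlier results of these data known. Named are all kinesins and, of each companion list, up to 3 called genes with the smallest p. Mki67 was a check gene, as was Col1a1. Gli1, Klc1, Kifap3, Dynll2, Lin9, Runx2, Col1a2, Cdc23, Gm26668, Gm31749, Ahctf1, Sh2d5 and Dimt1 were chosen after their values were seen. Kif26b, printed as sequence, was also chosen after its values were seen. A promoter window is the RefSeq window nearest to the gene's start in the table. Start-site stretches of chromosome 18 genes are not reported here.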

Additional observations from a re-analysis of the deposited data

How the results depend on the processing

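No kinesin changed direction with a call under any alternative, and the number of other kinesins called was 0 in each. For 12 mitotic kinesins the number higher was 10 with DESeq2's size factors, library totals, counts divided by 4 or the replicate block. At a mean of at least 1 FPKM it was 10 of 10, since that filter left out Kif18a and Kif24. It was 11 with DESeq2, 8 with no filter on low counts, 7 with limma at either pseudocount and 1 with limma and no filter. With 1 library left out it was 7 to 9. Over all genes the number higher, 496, was 890 with DESeq2, 317 with no filter on low counts, 323 with limma at a pseudocount of 1, 317 at 0.1 and 38 with limma and no filter, and 234 to 610 with 1 library left out. The number lower, 253, was 540 with DESeq2, 380 with library totals, 115 with no filter on low counts, 29 with limma and no filter, and 89 to 358 with 1 library left out. The cause was not tested. Same-numbered libraries did not deviate together over all genes (Pearson r 0.018, 0.014 and 0.0019). This cannot exclude a pairing that moved few genes, and the labels do not say whether the numbers pair samples. With the replicate block 460 genes were higher and 191 lower. Low levels limit Kif6, Kif9, Kif17, Kif27, Kif28 and Kif5a, whose intervals are wide.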

Other observations

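TTTGAA within 30 bases of a RefSeq start site was found in 42 of 337 windows of genes called higher in scaffold (12.5%), in 2 of 178 windows of genes called lower (1.12%) and in 1.75% of the windows of all tested genes. Anywhere in the window it was found in 22.6%, 10.1% and 12.1%. These shares are descriptions of letters in genes chosen by their fold change, with no test.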
